A study of Mus musculus with 4 samples.

Results

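The 39 genes described here encode the machinery that copies DNA and supplies its building blocks, from the MCM2-7 helicase to thymidylate synthase. They were taken by symbol from rows of the deposited table that describe a single locus, and all 39 were found among 17956 such loci. All 39 also passed the filter on low values (10 or more in 2 or more of the 4 libraries), which left 13764 loci for testing. The libraries came from bone-marrow Lin-Kit+ cells, a fraction rich in blood-forming stem and progenitor cells, of C57BL/6 mice. Asxl1-/- (KO) and wild-type (WT) cells were compared, with 2 libraries per genotype and 2000000 cells a library. The labels name neither the allele nor the age or sex of the mice, and they do not say that the replicates were separate animals, so p-values measure the spread between libraries.

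Replication begins when the origin recognition complex, CDC6 and CDT1 load the MCM2-7 ring onto DNA, and geminin holds CDT1 in check until the next cycle. CDC45 and the GINS complex then turn the ring into a working helicase. Polymerase alpha with primase starts each strand, polymerases epsilon and delta extend them around the PCNA clamp, and ribonucleotide reductase, thymidylate synthase and thymidine kinase keep the supply of deoxynucleotides. Most of these genes are E2F targets whose transcripts peak around the entry to S phase, and Lin-Kit+ marrow is rich in cycling cells.

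In KO these transcripts lay close to their WT levels. Of the 39 genes 1 passed the threshold of an adjusted p of 0.05 in limma, Pole2, which was lower in KO, and none was higher. Across all tested loci 20.9% passed, 11.9% higher and 8.97% lower in KO, so the 2.56% of members called lay below that background. Among the 7207 loci with a mean value no lower than that of the least abundant member the share was 25.7%. Without adjustment 2 members were higher and 4 lower at a p under 0.05, or 6 of 39, against 37.7% of all tested loci in either direction. That split followed the scaling and the libraries: it was 0 higher and 8 lower with upper-quartile scaling, 0 and 9 with total-read scaling, 0 and 0 without WT replicate 2 and 5 and 3 without KO replicate 1. No member was called higher by edgeR with TMM or RLE scaling or by DESeq2, which called 1, 0 and 2 lower.

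The size of the differences was also small. The median log2 fold change over the members was -0.01, the same to 2 decimals as the -0.01 over all tested loci. Values ran from -0.27 for Gins3 to 0.18 for Cdt1, and 25 of 39 members lay within 0.1 of 0, against 28.1% of all tested loci. The SD of the members' fold changes was 0.11, against 0.599 over all loci. For each of the 39 the 95% interval of the difference, taken gene by gene with no adjustment for their number, stayed inside a 1.5-fold change in either direction. That held for 56.3% of all tested loci, which are on the whole less abundant and less precisely measured (median SE 0.06 for members and 0.10 for all loci). These 39 intervals reached at most -0.52 on the lower side and 0.34 on the upper.

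**Figure D1:**
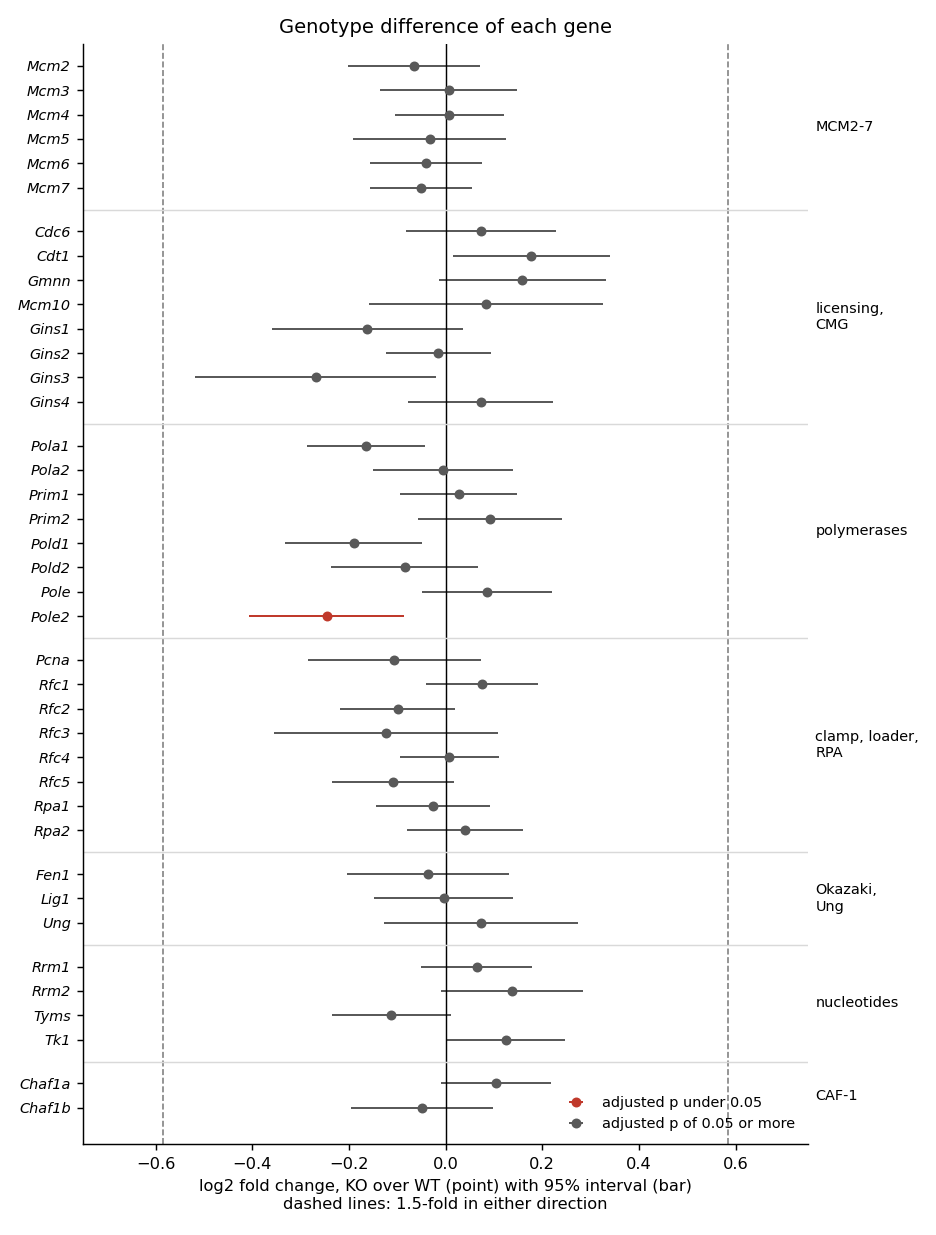
Log2 fold change of KO over WT for each of the 39 genes, grouped by role from top to bottom, with the 95% interval from limma as a bar (2 KO and 2 WT libraries) and dashed lines at 1.5-fold in either direction. All 39 bars stay between the dashed lines, and Pole2 alone is coloured as past the threshold.

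The background to this flat group was a table in which many loci moved. Asxl1 itself had normalised read counts, the unit of all values given here, of 146 and 135 in KO and 9742 and 9472 in WT (log2 fold change -6.09 ± 0.09, where ± on a fold change is the SE), which matches the genotype labels. The libraries held 83586916 and 76688583 recovered reads in KO and 46597871 and 49764454 in WT. Member loci held between 1020 and 48447 reads in any library, so counting alone contributes an error of 3.13% at most. Values were scaled by the authors, and of the 2875 loci called 57.0% were higher in KO, a share that was 42.6% with upper-quartile scaling and 39.2% with total-read scaling. Xist was 89290 in KO replicate 1 and 147 in KO replicate 2, and 103006 in WT replicate 1 and 2123 in WT replicate 2, that is, high in replicate 1 and low in replicate 2 of both genotypes. The median of the members was -0.02 within replicate 1 and 0.01 within replicate 2.

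Markers of the sorted progenitors and of other cell types included loci that differed by genotype. Of 6 progenitor markers 2 passed the threshold, both lower, or 33.3%, against 20.9% of all tested loci in either direction. The shares called in the other lists were 92.9% for neutrophil, 54.5% for erythroid, 66.7% for stem-cell, 50% for B lineage and 42.9% for mature lineage markers. Kit had 18483 and 18889 in KO and 17739 and 16149 in WT (0.14 ± 0.06, adjusted p = 0.131), while Cd34 (a locus shared with microRNA names, -0.83 ± 0.05) and Flt3 (-0.61 ± 0.16) fell. Of 14 mature neutrophil markers 13 rose, led by Olfm4, Trem1 and Cd177, and the summed value of the list was 2187570 and 2051890 in KO and 1078340 and 1202440 in WT. Of 11 erythroid markers 6 rose, led by Tfrc, Car1 and Ermap, with sums of 179216 and 212241 in KO and 118796 and 132062 in WT. Of 9 tested stem-cell markers 6 fell, led by Ly6a, Mecom and Hlf, with sums of 6443 and 6284 in KO and 8262 and 7764 in WT, and the tenth, Hoxb5, held at most 2 reads in a library. The largest part of these sums was Mllt3, the 1 tested marker of the list above 0. Mllt3 had 2717 and 2495 in KO and 2347 and 2331 in WT (0.15 ± 0.07, not called). Of 10 B lineage markers 5 fell, Cd79a and Cd79b among them, with sums of 106581 and 75083 in KO and 142890 and 135785 in WT. Of 7 surface markers of mature lineages 1 rose (Itgam) and 2 fell (Cd4 among them), with sums of 59904 and 55540 in KO and 43007 and 46015 in WT. Itgam made up most of these sums, while 5 of the 7 had a fold change below 0 and the median was -0.68. Such transcripts were present in the Lin- fraction: Itgam had 45203 and 42795 in KO and 24640 and 26902 in WT. The neutrophil count was 13 or 14 under each alternative, while the other counts moved more when a library was left out. Without WT replicate 1 calls fell to 3 erythroid, 1 stem-cell, 0 B lineage, 1 progenitor and 0 lower lineage markers. Without WT replicate 2 they were 8 erythroid, 2 stem-cell, 0 B lineage, 1 progenitor and 1 lower lineage marker, with 2 lineage markers higher. Without KO replicate 1 all 10 B lineage and 4 progenitor markers were lower, and without KO replicate 2 it was 3 lower lineage markers. With upper-quartile and total-read scaling 5 of 6 progenitor markers were lower, and with total-read scaling 8 B lineage markers, while edgeR called 1 progenitor marker. In whole-fraction RNA a change in the number of cells of a type and a change in RNA per cell cannot be told apart, and the part of these shifts in the members' values was not tested.

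**Figure D2:**
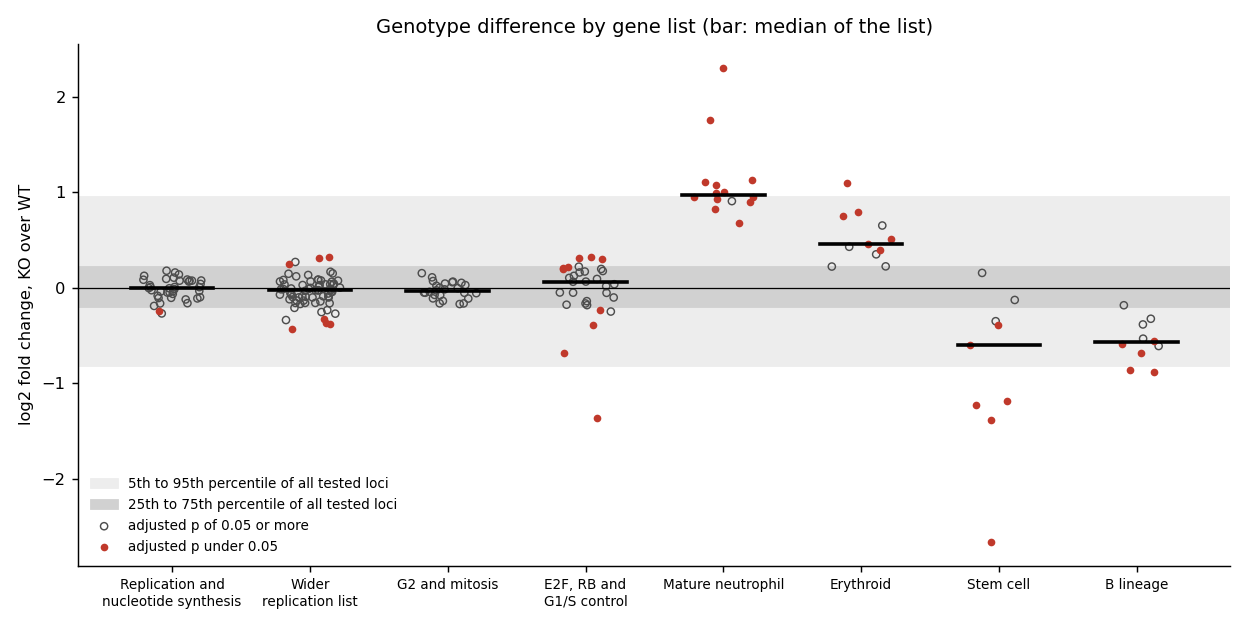
Log2 fold change of KO over WT for the loci of 8 gene lists, with filled points past an adjusted p of 0.05 in limma, a black bar at the median of each list and grey bands for the middle range of all 13764 tested loci (25th to 75th percentile, -0.21 to 0.21, and 5th to 95th, -0.82 to 0.95). The replication genes lie close to 0 while the mature neutrophil list centres on 0.97 and the stem-cell list on -0.60.

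The 39 genes lie on 15 chromosomes, 8 of them on chromosome 5 and 5 on chromosome 8. Of the 39, 30 have a locus of their own, 3 share it with cDNA clone names and 6 share it with another gene, so that reads cannot be divided between the 2. The shared loci are Gins2 with Gse1, Rfc4 with Eif4a2, Pold2 with Aebp1, Chaf1a with Ubxn6, Tk1 with Clast2, Syngr2 and Afmid, and Lig1 with 6330408A02Rik. Values of these 6 are those of the shared locus and are named as such. Gins1 on chromosome 2 lies 2415 kb from Asxl1, nearer than any other member.

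The sequence around the start sites was searched as well. Most of these genes are E2F targets, so a high share of E2F sites was foreseeable and is not an independent result. RefSeq promoter sequences of the GRCm38.p6 build (250 bases before the start and 50 after) were matched by symbol for 31 of the 39 genes, with 36 promoters. The letters searched were those of the E2F site in 4 spellings, TTTCCCGC, TTTCGCGC, TTTGCCGC and TTTGGCGC, on both strands. Of the 36 promoters 12 held at least 1, or 33.3%, against 2.26% of 32851 promoters in the RefSeq table. The share was 17.5% of 80 promoters from a wider list of replication and nucleotide metabolism genes. In a list of G2 and mitosis genes it was 4.35% of 23 promoters. The members' promoters had a median GC content of 60.7% against 52.7% over the table, and these letters are themselves rich in G and C. The median GC content was 61.2% in the wider list and 60.7% in the mitosis list. The letters CCAAT stood in 52.8% of the members' promoters and in 37.4% of the table, and TTTGAA, the core of the CHR element of mitotic genes, in 11.1% and 17.9%. In the wider list CCAAT stood in 45.0% and TTTGAA in 17.5%, and in the mitosis list these stood in 82.6% and 73.9%. A match is a stretch of letters and not a shown site of binding.

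The 170 bases before the start are given for 6 of them, 3 MCM subunits, the loader gene Cdc6, Pola1 and Gins3, because in these a whole E2F spelling lies well upstream of the start. Capitals mark the E2F letters on either strand, and where spellings overlap the whole stretch is in capitals.
Mcm5, helicase subunit, chr8:75109339-75109508, plus strand: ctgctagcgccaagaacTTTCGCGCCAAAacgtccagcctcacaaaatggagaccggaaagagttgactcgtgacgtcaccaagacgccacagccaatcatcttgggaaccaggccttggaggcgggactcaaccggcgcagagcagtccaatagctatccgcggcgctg
Mcm6, helicase subunit, chr1:128359706-128359875, minus strand: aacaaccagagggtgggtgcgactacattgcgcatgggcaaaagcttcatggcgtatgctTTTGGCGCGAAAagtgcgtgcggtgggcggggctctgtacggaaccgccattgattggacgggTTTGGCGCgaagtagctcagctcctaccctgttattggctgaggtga
Mcm7, helicase subunit, chr5:138171884-138172053, minus strand: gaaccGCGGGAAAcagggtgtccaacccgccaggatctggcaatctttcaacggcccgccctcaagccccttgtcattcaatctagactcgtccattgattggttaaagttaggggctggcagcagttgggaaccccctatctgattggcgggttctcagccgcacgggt
Cdc6, MCM loader, chr11:98907981-98908150, plus strand: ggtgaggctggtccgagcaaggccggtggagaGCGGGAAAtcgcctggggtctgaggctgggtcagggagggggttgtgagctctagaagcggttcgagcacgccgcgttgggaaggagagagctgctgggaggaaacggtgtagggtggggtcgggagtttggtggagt
Pola1, catalytic subunit of polymerase alpha, chrX:93632156-93632325, minus strand: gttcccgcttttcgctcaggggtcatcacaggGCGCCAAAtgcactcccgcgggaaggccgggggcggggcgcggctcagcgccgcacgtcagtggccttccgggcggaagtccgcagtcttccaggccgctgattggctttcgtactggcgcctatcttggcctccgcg
Gins3, GINS subunit, chr8:95633389-95633558, plus strand: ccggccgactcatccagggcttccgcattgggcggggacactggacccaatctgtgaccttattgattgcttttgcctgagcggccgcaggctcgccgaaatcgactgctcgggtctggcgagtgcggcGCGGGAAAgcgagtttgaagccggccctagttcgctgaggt
In Mcm5 the stretch begins 153 bases before the start and joins 2 overlapping spellings on opposite strands. Mcm6 has such a joined stretch at 110 bases and a further spelling at 47 bases before its start. Mcm7 has a second spelling after its start. In Pole2, Cdt1, Pold1, Mcm3 and Lig1 the spellings lie in the 50 bases after the start, and in Rfc3 within 10 bases of it, and these are not shown. The genes that carry the letters include members with differences near 0, such as Mcm3 and Lig1, and those with the largest differences, Gins3 and Pole2.

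None of the 6 MCM2-7 genes passed the threshold in limma, also at an unadjusted p under 0.05, nor in edgeR or DESeq2, and their median was -0.04. The shares of all tested loci in limma were 20.9%, and 37.7% at an unadjusted p under 0.05. Mcm7, the subunit with the smallest p of the 6, had values of 30174 and 29804 in KO and 31547 and 30599 in WT. Its log2 fold change was -0.05 ± 0.04 (SE, adjusted p = 0.428), with a 95% interval from -0.16 to 0.05. Mcm2 had 21705 and 23476 in KO and 23077 and 24156 in WT, a change of -0.06 ± 0.06 (adjusted p = 0.44). In Mcm7 both KO values lay just below both WT values, and in Mcm2 the genotypes overlapped.

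The other 4 subunits differed by -0.04 to 0.01. Mcm6 had 36719 and 38087 in KO and 37574 and 39404 in WT. Mcm5 had 26386 and 29407 in KO and 27768 and 29267 in WT. Mcm4 had 25387 and 26363 in KO and 25300 and 26183 in WT. Mcm4 showed the same small step between replicates in both genotypes. Mcm3, in a locus shared with a cDNA clone, had 24247 and 26748 in KO and 25221 and 25504 in WT. In all 4 the genotypes overlapped, and the KO libraries lay farther apart than the genotype means did.

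The 6 subunits form a ring with 1 copy of each, and their levels can be set beside each other per kb of exon (GENCODE M21 lengths of the protein-coding transcripts). On that scale, in normalised read counts per kb, Mcm7 was highest at 10124 ± 88.3 in KO and 10491 ± 226 in WT (SD, n = 2 each). Mcm2 was lowest at 6701 ± 372 in KO and 7006 ± 226 in WT. The highest and the lowest subunit thus differed 1.51-fold in KO and 1.497-fold in WT. The annotation behind the read counts (mm9) is not named and may differ from that of the lengths. How much of the spread between subunits comes from such a mismatch was not tested. Between them, Mcm6 had 8549 ± 221 in KO and 8797 ± 296 in WT, and Mcm3, Mcm5 and Mcm6 lay within their spread of each other in KO. The Mcm7 locus also gives rise to the microRNAs of the miR-106b-25 cluster.

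**Figure D3:**
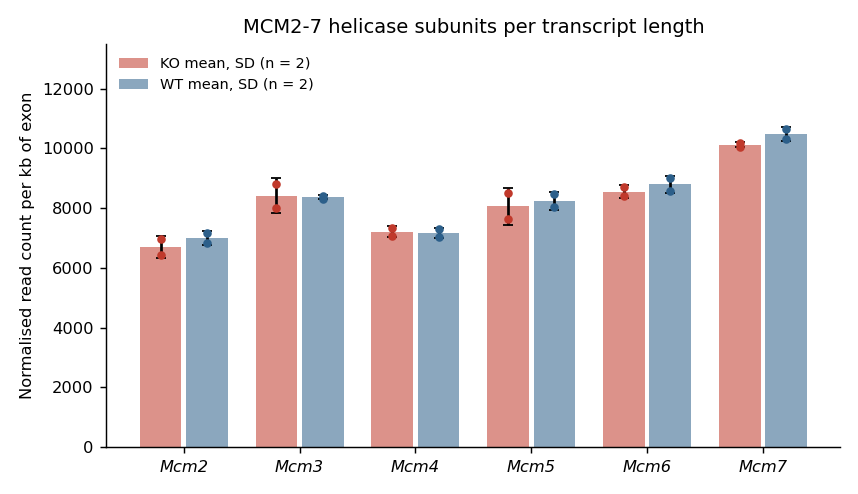
Normalised read count per kb of exon for Mcm2 to Mcm7, with bars for the mean and error bars for the SD of 2 KO (left bar) and 2 WT (right bar) libraries and points for the single libraries. The order of the subunits runs from Mcm2 at 6701 in KO and 7006 in WT to Mcm7 at 10124 in KO and 10491 in WT, and the genotypes lie close together in each subunit.

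Among the genes that load the ring and activate it, 0 of 8 passed the threshold in limma, against 20.9% of all tested loci. At an unadjusted p under 0.05 it was 2, against 37.7% of all tested loci, and 0 passed in edgeR or DESeq2. Cdt1, the loading factor, had 8311 and 9310 in KO and 7848 and 7707 in WT, with both KO values above both WT values. The change of 0.18 ± 0.07 missed the threshold (adjusted p = 0.108, and 0.0178 to 0.335 over 13 alternatives). It passed only without KO replicate 1, at 0.26. Gmnn, which encodes the CDT1 inhibitor geminin, stood higher as well, with 3787 and 3709 in KO and 3537 and 3186 in WT (0.16 ± 0.07, adjusted p = 0.159).

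The 4 GINS genes, none of them called, lay on both sides of 0. Gins3 had 1425 and 1631 in KO and 1735 and 1945 in WT, no overlap, and the largest difference of all 39 members at -0.27 ± 0.10 (adjusted p = 0.111). Over 13 alternatives its adjusted p ran from 0.0429 to 0.428, and it passed without KO replicate 2, at -0.37. Gins1 was lower by less, with 1553 and 1626 in KO and 1853 and 1706 in WT (-0.16 ± 0.08, adjusted p = 0.2). Gins4 had 2617 and 2664 in KO and 2529 and 2494 in WT, and the shared locus of Gins2 had 15979 and 15586 in KO and 15747 and 16147 in WT. Thus in Gins1 and Gins3 both KO values were below, in Gins4 both were above, and in Gins2 the genotypes overlapped.

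In Cdc6 and Mcm10 a single library stood above the rest. Cdc6, the ATPase that brings MCM2-7 to origins, had 8536 and 9464 in KO and 8422 and 8658 in WT (0.07 ± 0.06). Mcm10, which helps the helicase start, had 6468 and 7970 in KO and 6815 and 6741 in WT (0.08 ± 0.10). In both the value of KO replicate 2 was the highest of the 4, and in Mcm10 KO replicate 1 was the lowest. Without KO replicate 1 Mcm10 was called higher (0.23, adjusted p = 0.0264, the lowest of 13 alternatives that reached 0.911), while without KO replicate 2 its change was -0.07.

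The polymerases, 8 genes, held the only member that passed the threshold in limma, or 12.5% of them, against 20.9% of all tested loci. Pole2, the accessory subunit of polymerase epsilon, the leading-strand enzyme, had 2550 and 2621 in KO and 2970 and 3169 in WT. Both KO libraries lay below both WT libraries, and the log2 fold change was -0.25 ± 0.07 (adjusted p = 0.0477), or -15.7% with an interval from -24.6% to -5.74%. The call was near the threshold: edgeR gave an adjusted p of 0.0541 with TMM and 0.0571 with RLE scaling, and DESeq2 called it. It was lost with no filter on low values (adjusted p = 0.0586) and when WT replicate 1 (0.148), WT replicate 2 (0.266) or KO replicate 1 (0.0775) was left out, and over 13 alternatives the adjusted p ran from 0.0231 to 0.266.

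Pole, the catalytic subunit of the same enzyme, stood on the other side of 0. It had 10806 and 10038 in KO and 9952 and 9684 in WT (0.09 ± 0.06, adjusted p = 0.309), with both KO values above both WT values. Pold1, the catalytic subunit of polymerase delta, had 10215 and 9817 in KO and 10979 and 11897 in WT (-0.19 ± 0.06, adjusted p = 0.0653). Pola1, the X-linked catalytic subunit of polymerase alpha, had 9644 and 9187 in KO and 10430 and 10674 in WT (-0.16 ± 0.05, adjusted p = 0.0651). Neither passed in limma, although both KO values were below both WT values in each. Over 13 alternatives the adjusted p of Pold1 ran from 0.0262 to 0.334, with a call in DESeq2, and that of Pola1 from 0.0244 to 0.296, with calls in edgeR with TMM and without KO replicate 1. Both were also called with upper-quartile and total-read scaling, which lower KO relative to WT by 0.05 and 0.07 on the log2 scale.

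The partners of polymerase alpha and the second subunit of delta lay nearer to WT. Pola2 had 8063 and 8550 in KO and 8060 and 8628 in WT, so that the lower and the higher library nearly coincide between genotypes. Prim1, the catalytic primase subunit, had 6162 and 6013 in KO and 5986 and 5965 in WT, and its partner Prim2 had 4749 and 4449 in KO and 4227 and 4397 in WT. Both primase genes were thus slightly above WT in each library (0.03 ± 0.05 and 0.09 ± 0.06), short of the threshold. The locus of Pold2 with Aebp1 had 3432 and 3604 in KO and 3641 and 3822 in WT (-0.08 ± 0.06).

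**Figure D4:**
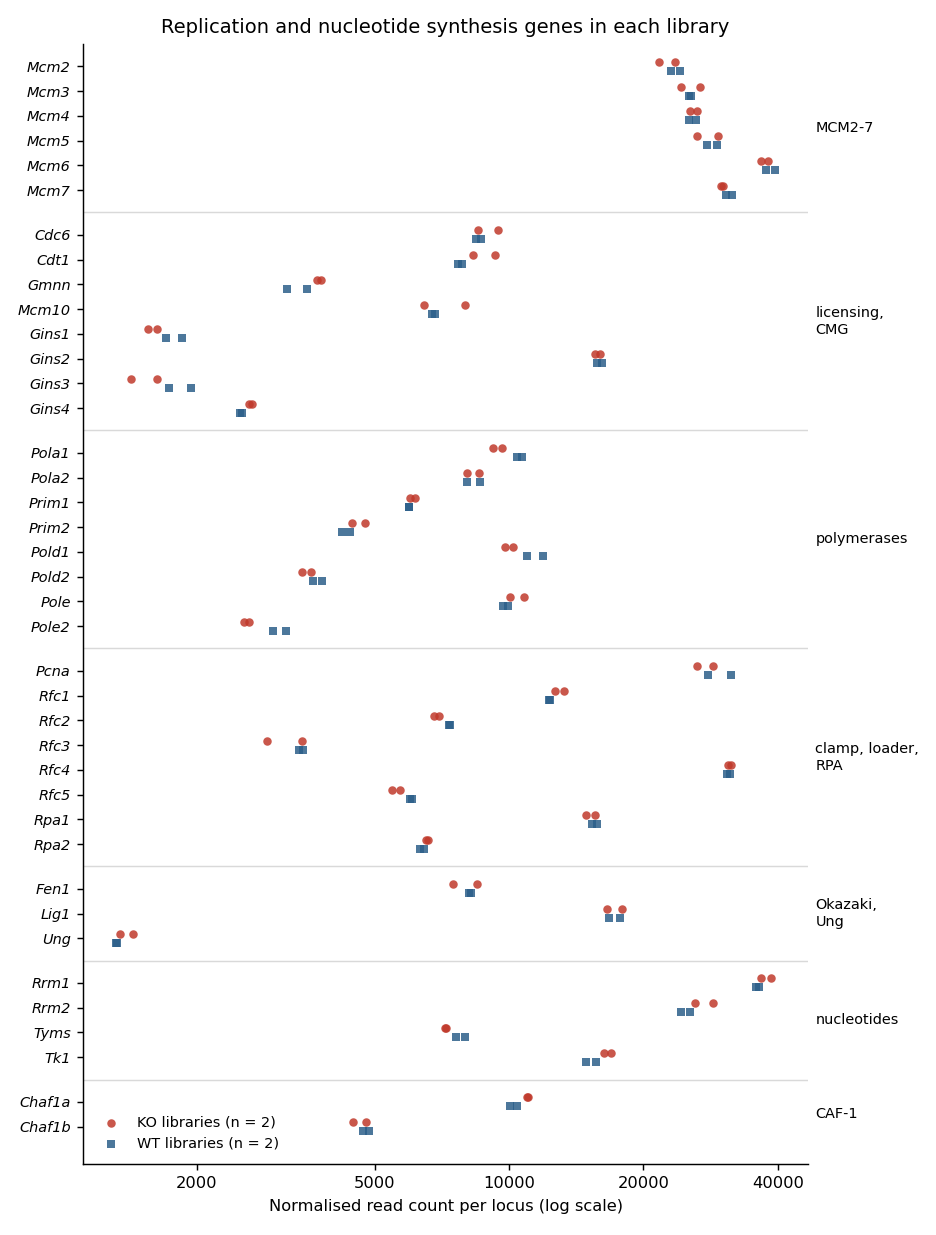
Normalised read count (log axis) of each of the 39 genes in the 2 KO libraries (circles, upper line of each gene) and the 2 WT libraries (squares, lower line), grouped by role. Members run from Ung, at 1344 and 1440 in KO and 1321 and 1323 in WT, to Mcm6 and Rrm1, and the genotypes do not overlap in 23 of the 39.

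The sliding clamp, its loader and the single-strand binding protein had 0 of 8 genes past the threshold in limma, also at an unadjusted p under 0.05, and 0 in edgeR and DESeq2. In limma 20.9% of all tested loci passed, and 37.7% at an unadjusted p under 0.05. Pcna, the clamp, varied more within a genotype than between them, with 28662 and 26325 in KO and 31382 and 27851 in WT (-0.11 ± 0.07, adjusted p = 0.34). The small loader subunits Rfc5 and Rfc2 had the smallest p. Rfc5 had 5484 and 5693 in KO and 6051 and 5994 in WT (-0.11 ± 0.05, adjusted p = 0.183), and Rfc2 had 6777 and 6978 in KO and 7352 and 7385 in WT (-0.10 ± 0.05, adjusted p = 0.192). For both, the KO libraries lay below the WT libraries.

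The large loader subunit Rfc1 lay the other way, with 13269 and 12692 in KO and 12282 and 12354 in WT (0.08 ± 0.05). Rfc3 had 2869 and 3442 in KO and 3453 and 3392 in WT, with KO replicate 1 apart from the other 3. It was called without KO replicate 2 (-0.25, adjusted p = 0.0389, the lowest of 13 alternatives that reached 0.943) and stood at 0.01 without KO replicate 1. The locus of Rfc4 and the translation factor gene Eif4a2 had 30890 and 31373 in KO and 30682 and 31266 in WT, in which reads of the 2 genes are not separated. Rpa1 had 14889 and 15603 in KO and 15750 and 15301 in WT, and Rpa2 had 6523 and 6586 in KO and 6450 and 6308 in WT. These RPA subunits coat exposed single strands, and their differences were -0.03 ± 0.05 and 0.04 ± 0.05.

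Genes that finish the lagging strand or remove uracil showed 0 of 3 past the threshold in limma, also at an unadjusted p under 0.05, and 0 in edgeR and DESeq2. For all tested loci the limma shares were 20.9%, and 37.7% at an unadjusted p under 0.05. Fen1, the flap endonuclease, had 7490 and 8458 in KO and 8201 and 8119 in WT (-0.04 ± 0.07, adjusted p = 0.739). The locus of the DNA ligase gene Lig1 had 17896 and 16528 in KO and 17754 and 16748 in WT, the difference nearest to 0 of all members (-0.00 ± 0.06). Ung, the uracil glycosylase and the least abundant member, had 1344 and 1440 in KO and 1321 and 1323 in WT (0.07 ± 0.08, adjusted p = 0.552). Only in Ung did the genotypes not overlap.

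The 4 genes of deoxynucleotide synthesis lay on both sides of 0, and none passed the threshold in limma, edgeR or DESeq2 (20.9% of all tested loci passed in limma). At an unadjusted p under 0.05 in limma it was 1, against 37.7% of all tested loci. Rrm2, the small subunit of ribonucleotide reductase whose level follows the cell cycle, had 26097 and 28661 in KO and 25465 and 24249 in WT (0.14 ± 0.06, adjusted p = 0.151). Its partner Rrm1 had 36646 and 38646 in KO and 35648 and 36347 in WT (0.06 ± 0.05). The shared locus of the thymidine kinase gene Tk1 had 16338 and 16911 in KO and 15671 and 14839 in WT (0.12 ± 0.05, adjusted p = 0.129). In these 3 both KO values were above both WT values, without a call in limma, and Rrm2 was called without KO replicate 1 (0.21, adjusted p = 0.0343, the lowest of 13 alternatives that reached 0.485).

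Tyms, the enzyme that makes thymidylate from deoxyuridylate, stood lower, with 7177 and 7210 in KO and 7604 and 7952 in WT (-0.11 ± 0.05, adjusted p = 0.16). Of 13 alternatives it was called only with total-read scaling (adjusted p = 0.0483, the others reaching 0.563). Of the 2 large subunits of CAF-1, which loads histones behind the fork, the locus of Chaf1a with Ubxn6 had 11042 and 10974 in KO and 10066 and 10409 in WT (0.10 ± 0.05, adjusted p = 0.156). Chaf1b had 4789 and 4467 in KO and 4858 and 4716 in WT (-0.05 ± 0.06, adjusted p = 0.589), with overlap, and neither gene was called in limma, edgeR or DESeq2 or had an unadjusted p under 0.05 in limma.

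The KO libraries differed from each other more than the WT libraries did, over all tested loci (median SD 0.09 and 0.06 on the log2 scale) and not only in these genes. KO replicate 2 was above KO replicate 1 in 26 members, and WT replicate 2 above WT replicate 1 in 21. The median signed differences were 0.05 in KO and 0.01 in WT, against 0.0001 and 0.01 over all tested loci. In 21 members the KO libraries lay farther apart than the genotype means, and in 11 the WT libraries did. Shares over all tested loci were not computed for these counts. Both KO values lay on 1 side of both WT values in 23 members, 13 above and 10 below, or 59.0%, against 66.1% of all tested loci and 69.8% of those at least as abundant as the lowest member. Within the replicate pairs 16 members were above 0 in both, 14 below 0 in both and 9 differed in sign.

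A wider list of 71 loci of replication and nucleotide metabolism, of which 70 were tested, gave 3 higher and 4 lower (20.9% of all tested loci passed). Ticrr, which is needed to fire origins (listed under an older symbol in a locus shared with Kif7), rose by 0.33 ± 0.06 (adjusted p = 0.0166), with 7999 and 7437 in KO and 6298 and 6013 in WT. Atad5, which unloads PCNA, rose by 0.25 ± 0.06, with 9424 and 10079 in KO and 8431 and 7948 in WT. The mitochondrial thymidine kinase gene Tk2 rose by 0.31 ± 0.07, with 1941 and 1884 in KO and 1522 and 1568 in WT. In all 3 both KO libraries lay above both WT libraries. Orc1 to Orc6, Cdc45, Cdc7 and Dbf4 were not called, with changes from -0.03 to 0.27. Without WT replicate 1 none of the 70 was called, and without WT replicate 2 none was called higher and 2 lower.

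The 4 that fell all belong to nucleotide supply, a part of the list with 28 tested loci. Of these 17.9% passed in either direction, against 20.9% of all tested loci. Shmt1, a serine hydroxymethyltransferase of folate metabolism, fell by 0.44 on the log2 scale (SE 0.07, adjusted p = 0.00962), with 2275 and 2312 in KO and 3205 and 3000 in WT. Nme2, a nucleoside diphosphate kinase, had 7163 and 7560 in KO and 9706 and 9323 in WT (-0.37 ± 0.05, adjusted p = 0.00836). Dctpp1, which degrades dCTP, had 1348 and 1222 in KO and 1631 and 1722 in WT (-0.38 ± 0.09). Dctd, the dCMP deaminase, had 1223 and 1264 in KO and 1609 and 1509 in WT (-0.33 ± 0.08). In each of the 4 both KO libraries lay below both WT libraries.

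Of the 28 tested loci of nucleotide supply 24 had a fold change below 0, or 85.7%, against 50.9% of all tested loci, and their median was -0.13. Apart from the 4 above and Tk2 none passed the threshold. The median was -0.08 in the second replicate pair and -0.13 in the first, and it ran from -0.17 to -0.05 when each library was left out in turn. Without WT replicate 1 none of the 28 was called lower, and without WT replicate 2 it was 2.

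Genes that control entry to S phase moved in both directions. Of 31 loci of E2F, RB and G1/S control 6 were higher and 4 lower in KO, or 32.3% in either direction. Across all tested loci 20.9% passed, 11.9% higher and 8.97% lower. Cdc25a, the phosphatase that activates CDK2, rose by 0.31 ± 0.06, the RB relative Rbl2 (with Aktip) by 0.30 ± 0.06 and the repressor E2f8 (with a cDNA clone) by 0.22 ± 0.04. Mycn fell by 1.36 (SE 0.17) and Ccnd2 by 0.69 (SE 0.09), and Myc fell to 9413 and 10165 in KO, against 12714 and 12854 in WT. Without WT replicate 1 or WT replicate 2 none of the 31 was called higher and 2 were called lower. With upper-quartile scaling 4 were higher and 8 lower, and with total-read scaling 3 and 8.

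Genes of the later phases of the cycle also lay near 0. In the G2 and mitosis list 0 of 26 were called in limma, against 20.9% of all tested loci. At an unadjusted p under 0.05 it was 1 higher and 3 lower, against 37.7% of all tested loci in either direction. The median of the list was -0.04. For this list edgeR with TMM called 1 lower, edgeR with RLE none and DESeq2 1 lower. With total-read scaling 3 were lower, without KO replicate 1 it was 2 lower, and without KO replicate 2 it was 2 higher and 1 lower.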

How the data were processed

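RNA was sequenced from 2 KO and 2 WT libraries, grouped by the sample labels. The submitters' processing notes name STAR 2.3.1t and mm9; which program counted the reads, against which annotation, with what strand setting and how values were scaled is not given in those notes or labels. The deposited signal values are scaled read counts: 100% were whole multiples of a library's value of 1 read, within 0.001 of a read, so the authors' counts were recovered. Rows that join loci by a comma, 4893 of 22849, were left out of the tests. The limit for a count of 0 is 3 reads, 2.27 to 3.89 on the deposited scale, and covers counting error only.

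Fold changes are KO over WT on the log2(value + 1) scale from limma 3.58.1 with a mean-variance trend (R 4.3.3), Benjamini-Hochberg adjustment over 13764 loci and a threshold of 0.05; intervals are limma's 95% intervals. On recovered counts edgeR 4.0.16 (quasi-likelihood) and DESeq2 1.42.0 were alternatives, as were pseudocounts of 0.5 and 10, upper-quartile and total-read scaling, no filter, a replicate block and leaving out each library. The steps were also run on simulated data, with the same spread for all loci and changes of 1.5-fold or more. The largest member difference was 1.21-fold, so that run does not bear on differences of the members' size. Members, lists and tests were chosen with earlier results of these data known. Named by rule were Asxl1, all 39 members, up to 5 called loci a direction of the wider list and up to 3 of each other list, by smallest p; 1 marker gene is not reported here. Kit, Hoxb5, Mllt3, Xist, Orc1 to Orc6, Cdc45, Cdc7 and Dbf4 were named after their values were seen.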

Additional observations from a re-analysis of the deposited data

How the results depend on the processing

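A pseudocount of 0.5 or 10 changed no count of members or of the wider list. Members called lower in KO, 1 as reported, were 0 with no filter and with edgeR and RLE, 2 with DESeq2 and with the replicate block, 3 with upper-quartile and 4 with total-read scaling, and 0 to 3 when 1 library was left out. Members called higher, 0 as reported, were 0 to 3 with 1 library left out. The member median was -0.059 with upper-quartile and -0.071 with total-read scaling, which shift all tested loci by as much, and -0.04 to 0.02 with 1 library left out. Over all loci, 1901 and 2060 were lower with these scalings; leaving out 1 library gave 603 to 1714 higher and 266 to 1542 lower. The wider list had 1 higher and 11 lower with upper-quartile, 1 and 13 with total-read scaling, 5 and 9 with DESeq2, 9 lower with the replicate block, and 0 to 5 higher and 0 to 11 lower with 1 library left out. With the replicate block Gins3 passed (adjusted p 0.0481, against 0.0429 to 0.428 over 13 alternatives) beside Pole2, and 9 erythroid and 4 progenitor markers were called. No label says that replicate numbers pair the samples. Xist was high in replicate 1 and low in replicate 2 of both genotypes, so sex may go with the number, and its part in the members' values was not tested; over tested loci the replicate differences of the 2 genotypes correlated at 0.25, and at 0.11 without Xist and chromosome Y loci. In fits without a WT library the spread comes from the KO pair alone, whose median SD was 0.09 on the log2 scale against 0.06 for the WT pair; the lone library is assumed to vary alike. Of 507 member results under alternatives 454 kept direction and side of the threshold, 33 changed sign with no call on either side, 14 gained a call and 6, all of Pole2, lost it.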

Other observations

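Rows that join a member to a neighbouring or contained gene were not tested. There were 39 such rows, and the largest held 3.32% of the reads of its member's locus in a library. The row that joins Mcm7 with Mir25 had 69 and 48 reads in KO and 36 and 30 in WT, which is 52.3 and 39.6 in KO and 46.6 and 36.6 in WT on the deposited scale. The row that joins Mcm7 with Mir106b had 20 and 31 reads in KO and 7 and 13 in WT. Both rows overlap between genotypes on the deposited scale, where the second is 15.2 and 25.6 in KO and 9.07 and 15.9 in WT. Of the rows that join the Rfc4 and Eif4a2 locus with small nucleolar RNAs, that with Snord2 had 634 and 592 in KO and 541 and 526 in WT, without overlap, and that with Snora81 had 324 and 349 in KO and 312 and 388 in WT, with overlap.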
